A study of Sorghum bicolor with 24 samples.

Results

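The 150 sorghum genes described here were higher in roots treated with abscisic acid (ABA) than in their NaOH controls and moved little in 3 other comparisons, namely ABA shoots against NaOH shoots, polyethylene glycol (PEG) roots against H2O roots and PEG shoots against H2O shoots. They were chosen from 34145 gene models by a ratio r, the log2 of the treated over the control mean, each with 1 RPKM added (RPKM, reads per kilobase of exon, scaled to the mapped reads of the library). A gene was a candidate if the size of r was under 0.5 in the 3 other comparisons, which held for 24735 models, and if its lowest ABA root library lay above its highest NaOH root library, which held for 5836, or 17.1% of all models. Both held for 3169 candidates, and the 150 with the highest r in ABA roots are the members, with 1 gene left out by name. Every level and ratio of the 4 treatment comparisons was therefore used in the choice, and those values, with the edgeR counts of these comparisons, describe the chosen genes and support nothing further.

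ABA is the hormone that plants make when water becomes scarce. Bound to its receptors, it holds back protein phosphatases of the 2C type, which frees SnRK2 kinases to activate bZIP transcription factors and so turn on stress genes. In roots it is known for restraining growth and for changing how water, ions and sugars are handled, and in leaves for closing stomata.

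The data are 24 RNA-Seq libraries of 9-day seedlings of the sorghum line BTx623, 3 in each of 8 groups. Roots and shoots were taken 27 h after 20 µM ABA, the NaOH that served as its control, 20% PEG-8000 or the H2O that served as its control had been given on day 8. PEG of this size is hardly taken up and lowers the water potential around the root. Each library pooled RNA from 3 hydroponic buckets of 10 plants, and the replicate numbers 1, 2 and 3 stand for 3 separate hydroponic experiments, with the roots and shoots of a number coming from the same plants. ABA and PEG had their own controls, so the 2 treatments share no control library. All plants were of 1 inbred line in nutrient solution, and a whole root or shoot was extracted, so that fewer cells of a type and less RNA per cell cannot be told apart.

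Reads on genes per library ranged from 12891583 to 22840341. A library with replicate number 3 was read with a later version of the base-calling software (1.6 instead of 1.5), as was NaOH shoots replicate 2, and these 9 libraries held at least 19955466 reads against at most 15915517 in the other 15. The tissue labels were checked with 9 genes described as chlorophyll-binding proteins or Rubisco small subunits, none of them a member. Their summed level was 6.6 to 32.7 RPKM in ABA roots and 4.9 to 24.8 RPKM over the other root libraries, against at least 13344 RPKM in every shoot library. A list of 3 root genes by description (Casparian strip, root cap, nicotianamine synthase) did not separate the tissues, at 124.4 to 208.4 RPKM in ABA roots and 248.4 to 370.1 RPKM in NaOH roots, against 110.2 to 179.2 RPKM in ABA shoots and 235.5 to 274.8 RPKM in NaOH shoots. Its sum was lower in every ABA root library than in any NaOH root library, and its part in the values of the members was not tested.

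Primers for quantitative PCR had been designed for 2 of the members, the zinc finger gene Sb02g042010 on chromosome 2 and the uncharacterized gene Sb04g004080 on chromosome 4. The primers are shown because they are the designed sequences with which these transcripts can be measured again, each written from its 5′ end.
Sb02g042010 forward: atggaaataaacagcaaagttgttc
Sb02g042010 reverse: atatccacaggtcagcagagtttac
Sb04g004080 forward: acgtcgagatggagatggac
Sb04g004080 reverse: ggttcattgtctgcatgagc
In the libraries, Sb02g042010 had 35.6, 43.6 and 41.9 RPKM in ABA roots, against 9.46, 12.1 and 9.64 RPKM in NaOH roots. Sb04g004080 had 74.2, 74.1 and 73.9 RPKM in ABA roots, against 25.8, 26.3 and 25.3 RPKM in NaOH roots, with the lowest coefficient of variation of all members in ABA roots, 0.2%. In ABA shoots Sb04g004080 had 35.0, 44.2 and 44.3 RPKM, against 33.5, 27.8 and 28.8 RPKM in NaOH shoots, so even a gene inside the limit on r could have shoot libraries that did not overlap. Without overlap, 23 members lay above and 6 below their controls in ABA shoots, 31 and 7 in PEG roots, and 23 and 7 in PEG shoots. The share of all models with such an order was not counted for these comparisons, so nothing is read from these counts.

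Among the members r in ABA roots ran from 4.17 to 1.2992, with a median of 1.66. The lower limit falls where r differs little from gene to gene. Just inside lay Sb05g025110 (r = 1.32), the potassium transporter gene Sb10g009770 (1.31) and Sb06g027300 (1.2992), and just outside lay Sb03g001100 (1.2988), the thiamin pyrophosphokinase gene Sb09g018200 and Sb04g022760, both also at 1.30. Sb06g027300 had 7.44, 6.99 and 7.46 RPKM in ABA roots, against 2.82, 2.02 and 2.27 RPKM in NaOH roots, and Sb03g001100 had 24.4, 26.7 and 18.4 RPKM in ABA roots, against 8.12, 10.2 and 8.10 RPKM in NaOH roots. The median of r was 0.09 in ABA shoots, 0.14 in PEG roots and 0.07 in PEG shoots, and 98, 114 and 99 of the 150 members had r above 0 there.

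**Figure D1:**
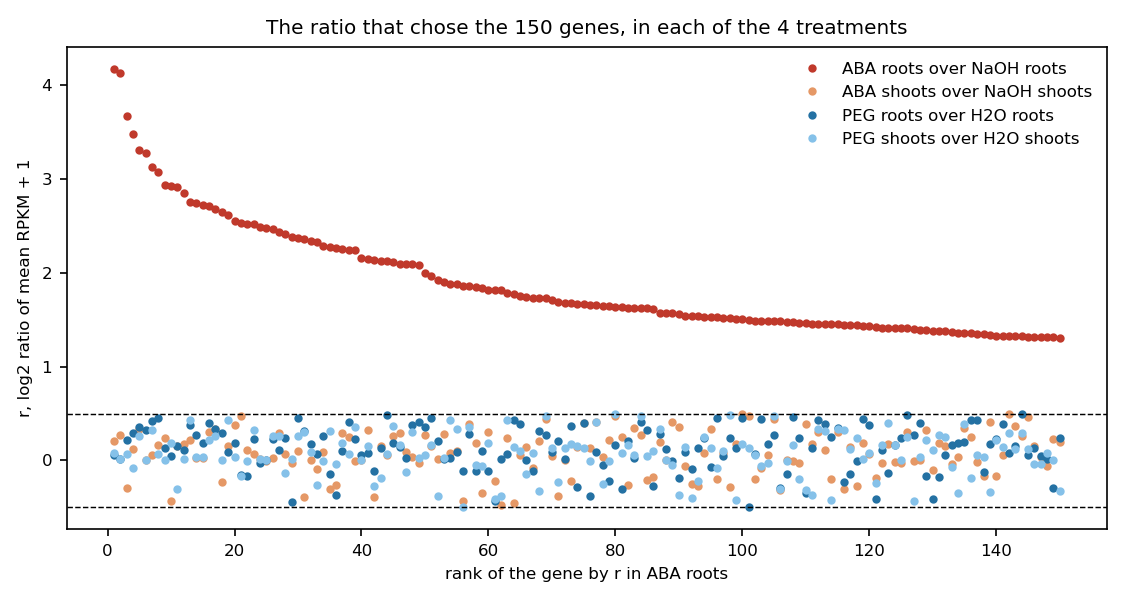
Ratio r, the log2 of treated over control mean RPKM with 1 RPKM added (y axis), for the 150 genes in order of r in ABA roots (x axis, rank), in ABA roots, ABA shoots, PEG roots and PEG shoots, with dashed lines at the limit of 0.5 in either direction. The ABA root points fall from 4.17 to 1.30, and all points of the other comparisons lie between the dashed lines because the choice required it.

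The members were faint in control roots and of middle level after ABA. Over the 150 genes, the median of the mean level was 13.8 RPKM in ABA roots, against 2.42 RPKM in NaOH roots. In NaOH roots 49 members averaged under 1 RPKM and 32 averaged 10 RPKM or more. The median member rested on 312.5 reads per library in ABA roots and on 58.8 reads per library in NaOH roots, and 7 members had 0 reads in all 3 NaOH root libraries. For those 7, with 3 reads taken as the floor in each NaOH root library, ABA roots were at least 3.38-fold (Sb05g006674) to at least 51.1-fold (Sb03g033010) higher. The replicates of ABA roots were close, with a median coefficient of variation of 14.5% and a highest of 59.5% in Sb07g004550.

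With edgeR's quasi-likelihood test over all 24 libraries, 148 of the 150 members passed the low-count filter, and 141 of these were called higher in ABA roots, that is, with a Benjamini-Hochberg adjusted p below 0.05, a difference of 1 or more on the log2 scale and exons covered to a median depth of 2X or more. Of all 22667 genes tested, 5.44% were called higher in that comparison, but the choice itself fixed the direction of the members and nothing is read from this count. In the 3 other comparisons edgeR called 0 members, where 7.17% of all tested genes were called in either direction in ABA shoots, 3.49% in PEG roots and 4.73% in PEG shoots. At an unadjusted p under 0.05 edgeR had 27 members in ABA shoots, 26 in PEG roots and 29 in PEG shoots, beside 7625, 4398 and 6875 of all 22667 genes tested. The limit on r kept genes with larger changes out, so nothing is read from these counts either. The choice had also fixed the order of ABA and NaOH roots, so nothing is read from the next count. The lowest ABA root library lay above all 9 other root libraries in 149 members, where 11% of all models had that order. The exception was Sb06g022355, described as a HEAT repeat gene, with 5.21, 4.51 and 5.32 RPKM in ABA roots, against 0.798, 1.35 and 2.06 RPKM in NaOH roots. Its NaOH root values rested on 3, 5 and 12 reads. It had up to 4.52 RPKM in H2O roots and up to 4.78 RPKM in PEG roots, both above its lowest ABA root library.

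A low shoot level makes the limit on r easy to pass, since 1 RPKM is added to both means. Of the members, 52 averaged under 1 RPKM in both ABA and NaOH shoots, and 44 stayed under 1 RPKM in all 12 shoot libraries, as did 40.9% of all models. For these genes the data show low shoot levels, and the limit on r says little about a fold change between shoot groups. An example, picked after its values were seen, is Sb04g007010, with 8, 3 and 15 reads in ABA shoots against 0 reads in all NaOH shoots, and 9, 8 and 8 reads in PEG shoots against 0 reads in all H2O shoots. The other 98 members averaged at least 1 RPKM in ABA or NaOH shoots, and 41 had 10 RPKM or more in all 12 shoot libraries. For those 41 the shoot levels lay well above the 1 RPKM added, although replicates could differ widely. Sb01g040070, for example, had 549.1, 54.2 and 281.3 RPKM in H2O shoots. Of the 44 members faint in all shoots, 23 were also under 1 RPKM in each of the 9 root libraries without ABA, and so passed 1 RPKM in ABA root libraries alone.

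The highest r belonged to Sb03g006090 (chromosome 3, 6186335 to 6188230, genome build sbi1), described as similar to a metallothionein, one of the small cysteine-rich proteins that bind metal ions. It had 3122, 3115 and 2468 RPKM in ABA roots, against 179.8, 147.5 and 153.5 RPKM in NaOH roots. PEG roots had 158.8, 134.6 and 223 RPKM, against 144.2, 152.4 and 200.9 RPKM in H2O roots. Only the ABA libraries stood apart among roots, by a fitted log2 fold change of 4.12 (SE 0.20) over NaOH roots. The gene was abundant in every shoot, with 1718, 1610 and 1649 RPKM in ABA shoots, against 1457, 1482 and 1358 RPKM in NaOH shoots. In RPKM, the level in ABA roots exceeded that of every shoot library.

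The next was Sb10g021810 (chromosome 10, 48503714 to 48505013), similar to a protodermal factor, a kind of protein known in Arabidopsis from the outermost cell layer of shoots. It had 19.4, 21.9 and 17.2 RPKM in ABA roots, against 0.175, 0.237 and 0.113 RPKM in NaOH roots, without overlap. ABA shoots had 347.9, 429.1 and 369.9 RPKM, against 297.7, 322.2 and 332.1 RPKM in NaOH shoots. Although its r was the second highest, the gene in ABA roots was still far below any shoot library.

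The third, Sb01g002860 (chromosome 1, 2352378 to 2353909), has no known function in its description. It had 14.7, 12.2 and 8.61 RPKM in ABA roots, against 0, 0.044 and 0 RPKM in NaOH roots, which amounts to 1 read in the 3 NaOH root libraries together. H2O roots had 0 reads in all 3 libraries. In ABA shoots it had 14.9, 9.66 and 13.1 RPKM, against 16.2, 12.8 and 17.7 RPKM in NaOH shoots, so that ABA roots and the shoots overlapped.

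Among the other members of the first 20, 5 with a described function had under 1 RPKM in every NaOH root library, and 1 of these, the ALMT3 gene, is given with the transporters. Sb05g006665 (chromosome 5, 11174856 to 11176779), a homeodomain transcription factor gene, had 11.6, 8.42 and 12.0 RPKM in ABA roots, against 0.291, 0.148 and 0.188 RPKM in NaOH roots, and 0 reads in all 12 shoot libraries. Sb04g021630-1, similar to poly(ADP-ribose) polymerase 3, an enzyme that attaches ADP-ribose to proteins, had 12.0, 17.0 and 16.4 RPKM in ABA roots, against 0.89, 0.989 and 0.641 RPKM in NaOH roots. Sb04g031805, similar to a mechanosensitive ion channel, had 7.62, 7.32 and 6.88 RPKM in ABA roots, against 0.096, 0.098 and 0.062 RPKM in NaOH roots. Sb04g033520, similar to vacuolar processing enzyme 1, a cysteine protease that matures vacuolar proteins, had 9.45, 10.9 and 8.59 RPKM in ABA roots, against 0.668, 0.442 and 0.625 RPKM in NaOH roots. In none of them did the 3 ABA root libraries overlap with any other root library.

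Another 9 of the first 20 have no described function. Sb06g002800 had 15.0, 10.8 and 6.67 RPKM in ABA roots, against 0.147, 0.037 and 0 RPKM in NaOH roots. Sb06g029100 had 20.7, 16.6 and 12.9 RPKM in ABA roots, against 0.686, 0.896 and 0.79 RPKM in NaOH roots. Sb06g019810 had 7.46, 9.77 and 4.99 RPKM in ABA roots, against 0 reads in all NaOH and H2O roots, and was at least 12.6-fold higher in ABA roots with the same floor. The best measured of them, Sb01g011610, had 127.0, 145.9 and 157.6 RPKM in ABA roots, against 22.6, 26.2 and 22.2 RPKM in NaOH roots. The remaining genes, Sb03g009110, Sb07g004680, Sb03g033310, Sb09g022150 and Sb06g027890, had means of 5.58 to 12.6 RPKM in ABA roots and of at most 0.90 RPKM in NaOH roots.

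**Figure D2:**
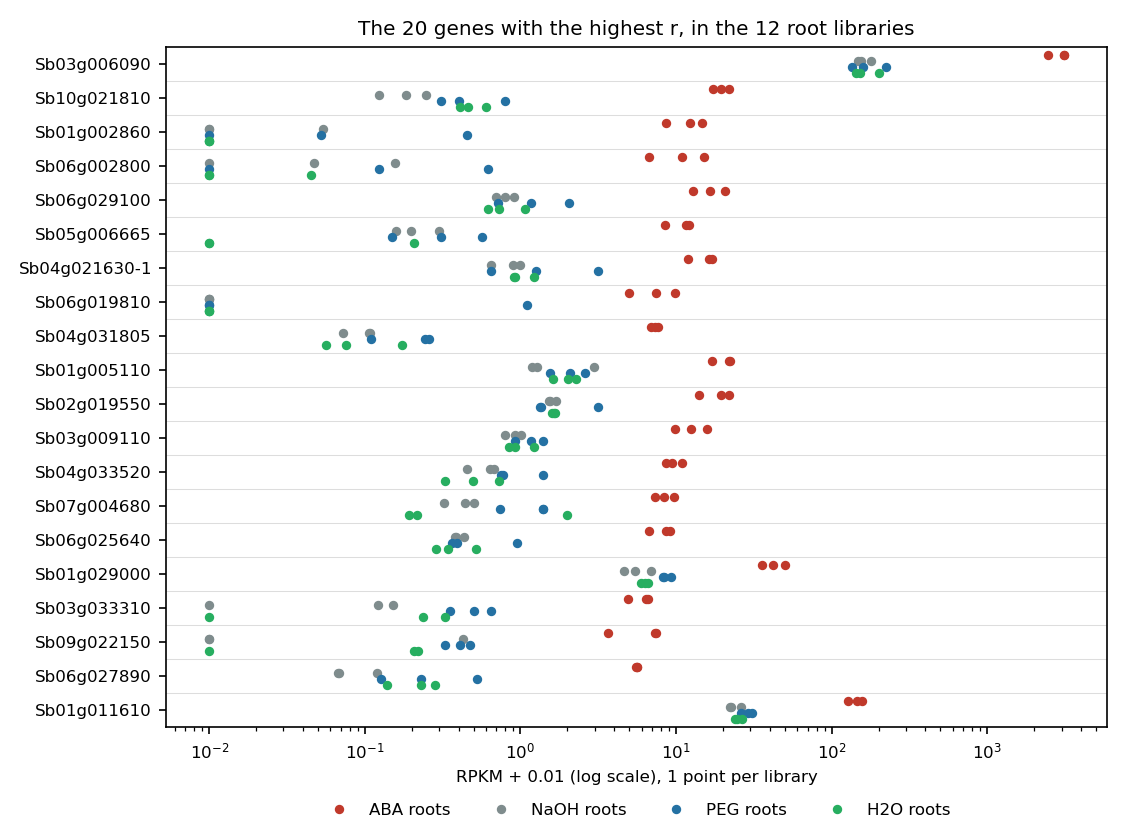
Level in each of the 12 root libraries (x axis, RPKM with 0.01 added, log scale) of the 20 genes with the highest r (rows, highest r at the top), with ABA, NaOH, PEG and H2O roots in separate colours and 1 point per library. The 3 ABA points lie to the right of all others in each row, and points at the left edge stand for 0 reads.

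By description, 60 of the 150 members had a described function or family and 90 did not. Of the 60, 19 fitted none of the function groups below. Transcription factors were the largest group of regulators with 11 members, and their r ran from 3.27 to 1.48. Besides the homeodomain gene Sb05g006665 they included its neighbour Sb05g006660, with 3.99, 4.03 and 2.30 RPKM in ABA roots and 0 reads in every NaOH root and shoot library. Sb01g005110, similar to IAA14 of the AUX/IAA proteins that repress auxin-responsive genes, had 21.7, 22.3 and 17.0 RPKM in ABA roots, against 1.27, 1.18 and 2.98 RPKM in NaOH roots. Sb01g029000, a homeodomain leucine zipper (HD-ZIP) gene, had 50.0, 42.3 and 35.7 RPKM in ABA roots, against 6.90, 5.43 and 4.65 RPKM in NaOH roots. The other 7 belonged to the zinc finger (Sb02g042010), AP2/ERF (Sb10g023600), bZIP (Sb05g003420), mTERF (Sb01g006050), OFP (Sb01g043950), Dof (Sb04g029300) and pseudo-response regulator (Sb01g038820) families. Sb01g038820, similar to PRR73, a component of the circadian clock in rice, was the most abundant of the 11, with 249.0, 265.1 and 369.0 RPKM in ABA roots, against 106.6, 111.7 and 96.1 RPKM in NaOH roots. The bZIP gene Sb05g003420 had 2.86, 2.49 and 1.99 RPKM in ABA roots and 0 reads in every NaOH root library, where the floor makes ABA roots at least 16.0-fold higher.

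Transporters and channels made up 7 members. Sb06g025640, similar to ALMT3 of the aluminium-activated malate transporters, had 9.08, 8.62 and 6.68 RPKM in ABA roots, against 0.368, 0.374 and 0.422 RPKM in NaOH roots. Sb03g002490, similar to the aquaporin NIP1-2, of a family that conducts water and small uncharged solutes, had 48.5, 43.5 and 37.7 RPKM in ABA roots, against 14.3, 12.0 and 10.7 RPKM in NaOH roots, and at most 0.432 RPKM in any shoot library. The potassium outward rectifying channel gene Sb10g008960, of a kind that lets potassium leave cells, had 53.2, 53.5 and 55.1 RPKM in ABA roots, against 19.8, 20.3 and 21.9 RPKM in NaOH roots. The potassium transporter gene Sb10g009770 had 24.2, 25.8 and 23.6 RPKM in ABA roots, against 9.71, 10.7 and 7.43 RPKM in NaOH roots. The group was completed by the mechanosensitive channel gene Sb04g031805, the MATE efflux gene Sb01g016100 and the solute carrier gene Sb02g031360. All 7 had ABA root libraries above every PEG and H2O root library.

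The carbohydrate group held 4 enzymes of sucrose and starch metabolism. Sb03g028080, of the phosphoglucomutase family that interconverts glucose phosphates, had 32.7, 30.7 and 31.3 RPKM in ABA roots, against 5.24, 5.77 and 5.49 RPKM in NaOH roots. Sb06g029050, similar to starch synthase IIIb-1, had 27.2, 30.6 and 33.7 RPKM in ABA roots, against 5.61, 7.08 and 5.99 RPKM in NaOH roots. Sb10g004160-1, similar to plastid starch synthase I, had 13.1, 13.2 and 14.4 RPKM in ABA roots, against 4.22, 5.50 and 3.11 RPKM in NaOH roots. Sb05g007310, similar to sucrose-phosphate synthase, which makes the precursor of sucrose, had 17.4, 16.6 and 9.18 RPKM in ABA roots, against 4.65, 3.48 and 3.92 RPKM in NaOH roots. Starch synthases lengthen the glucose chains of starch. The PEG root and H2O root libraries of the 4 genes lay between 2.56 and 7.60 RPKM, below all their ABA root libraries.

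Of the 7 members for oxidation and detoxification, 3 were cytochrome P450 genes. Sb01g047640 had 13.2, 12.5 and 9.23 RPKM in ABA roots, against 1.43, 0.725 and 1.44 RPKM in NaOH roots, and Sb05g021400 had 69.0, 56.6 and 41.4 RPKM in ABA roots, against 20.0, 14.3 and 17.7 RPKM in NaOH roots. The 2 genes differed in shoots, where Sb01g047640 had 24.0 to 46.5 RPKM and Sb05g021400 at most 0.733 RPKM over the 12 libraries. The third was Sb09g023680. Cytosolic glyceraldehyde-3-phosphate dehydrogenase, a glycolytic enzyme encoded by Sb07g002220-1, was among the most abundant members, with 691.8, 763.0 and 581.4 RPKM in ABA roots, against 284.8, 253.7 and 257.2 RPKM in NaOH roots.

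Lipid and surface genes were few. Sb02g019550, similar to GDSL lipases, had 22.0, 19.4 and 14.0 RPKM in ABA roots, against 1.55, 1.68 and 1.51 RPKM in NaOH roots. Sb02g011920, a fatty acyl-CoA reductase gene, whose products are the fatty alcohols found in suberin and wax, had 36.6, 35.2 and 36.4 RPKM in ABA roots, against 13.2, 11.0 and 11.0 RPKM in NaOH roots. The phospholipase C gene Sb09g002320 had 99.4, 94.8 and 105.4 RPKM in ABA roots, against 26.5, 25.5 and 31.0 RPKM in NaOH roots. The cell wall group held the proline-rich protein gene Sb08g008200, the mucin-like gene Sb01g030270 and the endo-1,3-beta-glucanase gene Sb03g045630. Proteolysis and defence were represented by Sb04g033520, by 2 RING finger genes (Sb02g003340 and Sb10g005450-1, a family of ubiquitin ligases) and by the thaumatin-like gene Sb10g022000, with r of 2.76 to 1.46. Only 2 members were kinases, the phytochrome and protein kinase-like gene Sb03g028250 and the gene of pyruvate dehydrogenase kinase, Sb02g040610.

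None of 13 genes described as belonging to ABA synthesis, breakdown or signalling was a member. Only 150 of 34145 models are members, and the limit on r kept out genes that changed in the other comparisons, so nothing is read from this. The list covers phosphatases 2C, SnRK2 kinases, ABA 8′-hydroxylases, 9-cis-epoxycarotenoid dioxygenases and ABRE-binding bZIP factors that have a description in the study's tables of responding genes, and since it was drawn from these samples it is not independent evidence of a direction. Of the 13, edgeR's test called 9 higher and 1 lower in ABA roots, 6 higher and 1 lower in ABA shoots, 2 higher in PEG roots and 6 higher in PEG shoots. Of all 22667 genes tested, 5.44% were called higher and 1862 genes lower in ABA roots. In either direction 7.17% were called in ABA shoots, 3.49% in PEG roots and 4.73% in PEG shoots. All 3 ABA 8′-hydroxylase genes, whose enzymes break ABA down, were higher in ABA roots, and 2 of the 3 in ABA shoots as well. Of the 4 described protein phosphatase 2C genes 2 were higher in ABA roots and 1 lower, and 2 were higher in ABA shoots.

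Whether a member was more abundant in the root or in the shoot without any added hormone can be read from the H2O seedlings. Here the comparison of H2O roots with H2O shoots was not used in the choice, but the choice favoured genes that were low in NaOH roots, so the number of members low in H2O roots is not independent of it. EdgeR's quasi-likelihood test with the same limits called 20 members higher in H2O roots than in H2O shoots, 13.5% of the 148 tested, where 17.6% of all tested genes were called. It called 52 members lower in H2O roots, 35.1% of those tested, where 17.8% of all tested genes were called. The median log2 fold change of H2O roots over H2O shoots was -0.65 over the members and 0.10 over all tested genes. Without overlap between the groups, 52 members lay above in H2O roots (41.6% of all models) and 57 below (14.5% of all models). With library sizes alone as the scaling, in an exact test with a common dispersion, the counts were 28 higher and 43 lower among the members, beside 7070 higher and 3103 lower among all 22667 genes tested, and the medians were -0.03 over the members and 0.73 over all tested genes.

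All 4 carbohydrate enzymes were lower in H2O roots than in H2O shoots. The starch synthase gene Sb10g004160-1 had 5.08, 4.31 and 4.11 RPKM in H2O roots, against 293.2, 201.4 and 318.0 RPKM in H2O shoots. Its fitted log2 fold change was -6.52 (SE 0.25, Benjamini-Hochberg adjusted p = 6.67e-15 by edgeR's quasi-likelihood test). The fit used TMM scaling and RPKM the mapped reads alone, so fitted values differ from the log2 ratios of the RPKM shown. The phosphoglucomutase gene Sb03g028080 had 6.48, 5.72 and 4.87 RPKM in H2O roots, against 175.0, 189.2 and 138.9 RPKM in H2O shoots (-5.48, SE 0.14, adjusted p = 9.77e-17 by the same edgeR test). For Sb06g029050 and Sb05g007310 the log2 fold changes were -4.25 (SE 0.25) and -3.11 (SE 0.29). In ABA roots these genes had means of 13.6 to 31.5 RPKM, all below the means of the same genes in H2O shoots, which were 28.9 to 271 RPKM.

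**Figure D3:**
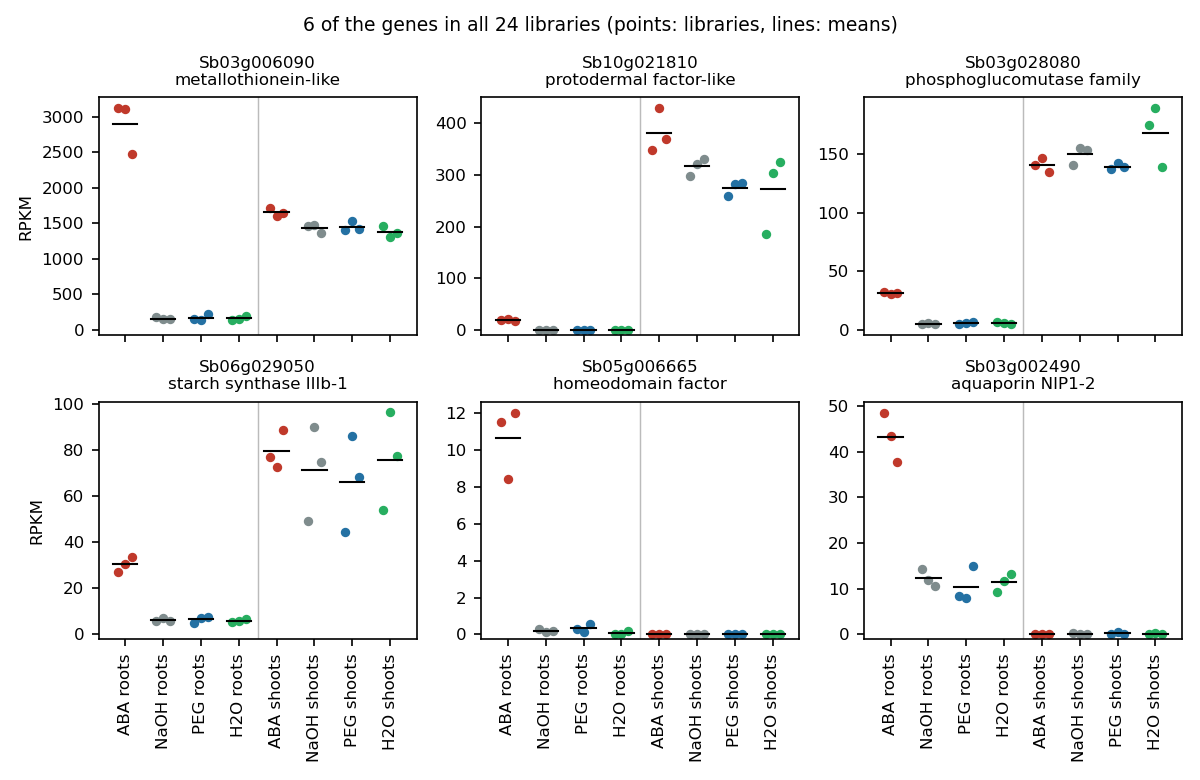
Level (y axis, RPKM) of 6 members in all 24 libraries (points, 3 per group) with the group mean as a line, ABA, NaOH, PEG and H2O from left to right, roots left of the grey line and shoots right of it. Sb03g006090 was higher in ABA roots (2468 to 3122 RPKM) than in any shoot library, Sb10g021810, Sb03g028080 and Sb06g029050 were lower in ABA roots than in shoots, and Sb05g006665 and Sb03g002490 were at or near 0 in shoots.

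The members lowest in H2O roots relative to H2O shoots were Sb10g021810, Sb01g002860, Sb01g030550-1 and Sb03g037780. Sb10g021810 had 0.397, 0.448 and 0.594 RPKM in H2O roots, against 185.7, 304.8 and 326.0 RPKM in H2O shoots. Its fitted log2 fold change was -9.67 (SE 0.29, adjusted p = 4.34e-16 by edgeR's quasi-likelihood test). Sb01g030550-1 had 0.225, 0.254 and 0.269 RPKM in H2O roots, against 85.9, 104.5 and 81.3 RPKM in H2O shoots (-9.02, SE 0.34). Sb03g037780 had 0.09, 0.114 and 0.189 RPKM in H2O roots, against 35.9, 24.5 and 29.8 RPKM in H2O shoots (-8.31, SE 0.28). Sb01g002860, without a read in H2O roots, was at least 163-fold higher in H2O shoots, with 3 reads taken as the floor in each H2O root library.

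At the other end, Sb05g005560, similar to an aluminum-induced protein, had 68.4, 75.1 and 49.3 RPKM in H2O roots and 0 reads in all 3 H2O shoot libraries, which makes H2O roots at least 209-fold higher with the same floor. It had 179.3, 217.3 and 200.2 RPKM in ABA roots, against 73.8, 92.1 and 57.4 RPKM in NaOH roots. Sb09g023680, a cytochrome P450 gene, had 4.01, 6.89 and 5.81 RPKM in H2O roots and 0 reads in H2O shoots, at least 34.3-fold higher. Sb04g008900 had 6.49, 6.50 and 5.13 RPKM in H2O roots, against 0, 0.037 and 0.055 RPKM in H2O shoots. Its fitted log2 fold change was 6.76 (SE 0.40, adjusted p = 6.09e-12 by edgeR's quasi-likelihood test). Sb07g004680, the other gene of these 4, had 0.183, 0.206 and 1.97 RPKM in H2O roots, or 3, 4 and 54 reads, against 0 reads in H2O shoots, and did not reach the depth limit. The aquaporin gene Sb03g002490 was also called higher in H2O roots, with a log2 fold change of 5.74 (SE 0.50).

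Setting the 3 levels side by side shows where ABA roots ended up. Among the 52 members called lower in H2O roots than in H2O shoots, the mean level in H2O roots was a median of 16.6% of that in H2O shoots, and the mean level in ABA roots a median of 77.9% of it. In 20 of the 52 the ABA root mean was above the H2O shoot mean, and in 32 it was below. The lowest was Sb01g030550-1, where ABA roots had 2.58% of the H2O shoot level, and the highest was Sb06g029100, with 452%. Over all 150 members, the H2O shoot mean was above the H2O root mean in 76 and below it in 71. These shares and counts are of RPKM, scaled to mapped reads alone, whereas the 52 were called with TMM scaling. Over all tested genes the median log2 fold change of H2O roots over H2O shoots was 0.10 with TMM and 0.73 with library sizes alone. With mapped reads alone, roots stand higher relative to shoots, and the shares were not computed with TMM. Because members were chosen for a high ABA root level, the approach of ABA roots to shoot levels is a description of the chosen genes.

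**Figure D4:**
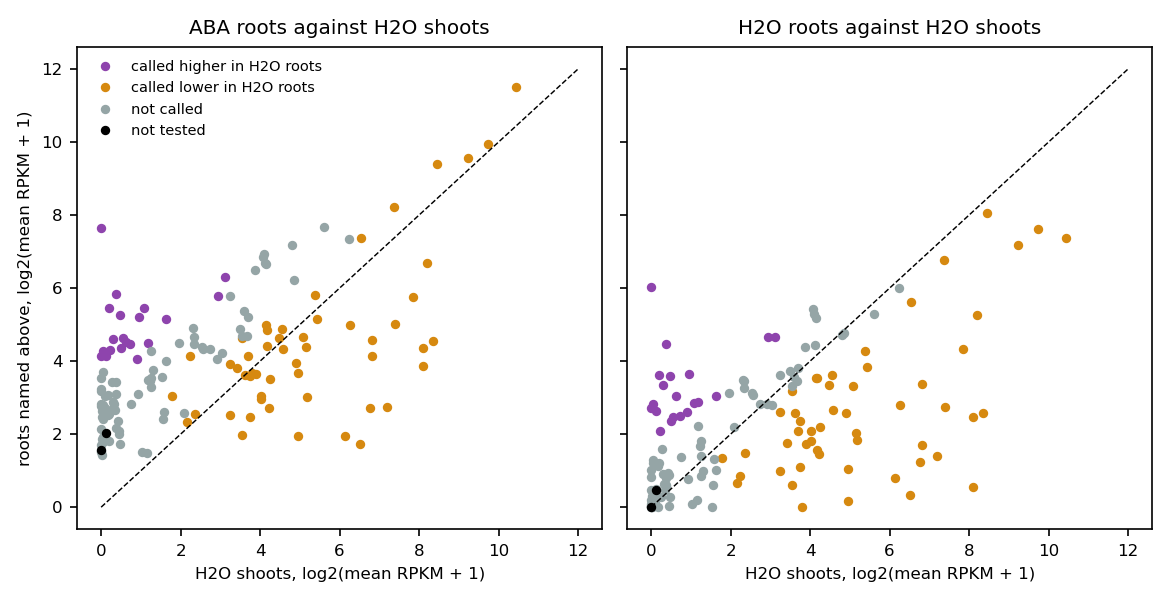
Mean level in ABA roots (left) and in H2O roots (right), both on the y axis as log2 of RPKM with 1 added, against that in H2O shoots (x axis, same scale), 1 point per member, coloured by the call of H2O roots against H2O shoots, with equality dashed. The 52 genes called lower in H2O roots lie below the line on the right, and 20 of them lie above it on the left.

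The members best measured in shoots show the shoot values at high read numbers. The 12 with the highest mean in ABA and NaOH shoots included Sb03g006090, Sb08g008200, Sb08g008190, Sb07g002220-1, Sb10g021810, Sb10g004160-1 and Sb03g028080. Sb03g028080 had 140.4, 147.1 and 135.0 RPKM in ABA shoots, against 141.0, 155.5 and 153.5 RPKM in NaOH shoots, and 137.1, 142.2 and 138.8 RPKM in PEG shoots, against 175.0, 189.2 and 138.9 RPKM in H2O shoots. Others carry no described function, such as Sb08g018350, with 258.0, 339.4 and 269.3 RPKM in ABA shoots, against 292.5, 479.5 and 360.4 RPKM in NaOH shoots, and with 24.5, 21.9 and 20.3 RPKM in ABA roots, against 5.49, 3.90 and 3.42 RPKM in NaOH roots. The rest of the 12 were Sb06g020530, Sb01g040070, Sb04g023800 and Sb01g003340. Sb01g040070 varied with the experiment more than with the treatment in shoots, with 347.8, 121.4 and 182.7 RPKM in ABA shoots, against 521.4, 110.4 and 216.8 RPKM in NaOH shoots, replicate 1 being highest in each group. It was also 1 of the 7 tested members that edgeR did not call in ABA roots, with 136.5, 113.2 and 56.2 RPKM there, against 42.2, 37.9 and 13.2 RPKM in NaOH roots. ABA roots were above NaOH roots within each replicate number, as the choice required. With the number as a block edgeR called the gene higher in ABA roots, and since the choice fixed that direction nothing is read from the call.

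The 2 controls, NaOH and H2O, were compared as well, although NaOH root values took part in the choice. EdgeR's quasi-likelihood test called 0 members and 0 of all 22667 genes (0%) between NaOH roots and H2O roots, and likewise 0 members and 0% of all genes between NaOH shoots and H2O shoots. At an unadjusted p under 0.05 there were 3 members in roots (360 of all genes) and 3 in shoots (567 of all genes). DESeq2 called 0 members in both, beside 1 of all genes in roots and 0 in shoots. An exact test with a common dispersion also called 0 members in both. Over all genes it called 85 higher and 1 lower in NaOH roots, and 6 higher and 5 lower in NaOH shoots. In the roots 10 members lay lower in every NaOH library than in every H2O library (2.06% of all models) and 1 higher (1.67% of all models).

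Replicates differed in a way that the groups do not show. The choice required all 150 members to be higher in ABA roots than in NaOH roots within each replicate number. The median of r within a number was 1.84, 1.85 and 1.65 for replicates 1, 2 and 3. Replicate 3 was the experiment read with the later software version in all root groups. In PEG roots, 95 of the members (63.3%) were highest in replicate 3, where 33% of all models with a read were highest in that library. The H2O roots leaned the same way, with 80 members highest in replicate 3 (37.4% of all models), whereas 27 members were highest in replicate 3 of ABA roots (38% of all models) and 50 in replicate 3 of NaOH roots (36.2% of all models). Of the first 20, Sb06g019810 had 0, 0 and 1.09 RPKM in PEG roots, and Sb04g021630-1 had 0.64, 1.26 and 3.14 RPKM, in each case with replicate 3 highest and far below ABA roots. Within replicate 3 the median of r in PEG roots was 0.17, against 0.10 and 0.06 within replicates 1 and 2. The part of the software version and of the experiment in this was not tested.

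The members were spread over all 10 chromosomes, at 0.205% of the gene models of chromosome 7 to 0.6% of those of chromosome 6. Their median exon length was 1332 bases, where all models had 1182. There were 13 members with another member at most 2 gene models away, in 8 pairs. On chromosome 1, Sb01g028683 (50056256 to 50080224), Sb01g028686 (50081277 to 50087289) and Sb01g028690 (50088438 to 50095317) followed each other, the last described as a C2 domain protein. They had 47.1, 49.6 and 65.1 RPKM, 80.3, 80.5 and 107.2 RPKM, and 91.5, 97.1 and 114.9 RPKM in ABA roots, in that order, against 10.3 to 12.8 RPKM, 18.4 to 21.7 RPKM and 19.9 to 21.0 RPKM in NaOH roots. Sb01g028683 had the lowest level of these in every ABA and NaOH root library, and whether they are parts of 1 transcript was not tested.

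The 2 homeodomain genes on chromosome 5, Sb05g006660 and Sb05g006665, stood 3720 bases apart and were both without reads in all shoots. On chromosome 8, Sb08g008200 (15288354 to 15288526) lies inside Sb08g008190 (15287435 to 15289117), the only members that overlap another model of the set, and since strand was not regarded in the counting their reads cannot be told apart. Sb08g008200 had 1385, 926.6 and 615.3 RPKM in ABA roots, against 225.8, 162.5 and 122.0 RPKM in NaOH roots, and Sb08g008190 had 972.9, 737.3 and 564.4 RPKM in ABA roots, against 181.5, 137.4 and 89.6 RPKM in NaOH roots. They count as 1 signal. The remaining neighbours were Sb03g004790 with Sb03g004800, the nodulin family gene Sb08g014860 with Sb08g014880, and Sb09g002310 with the phospholipase C gene Sb09g002320, whose level in ABA roots was 94.8 to 105.4 RPKM where Sb09g002310 had 7.02 to 8.16 RPKM.

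**Figure D5:**
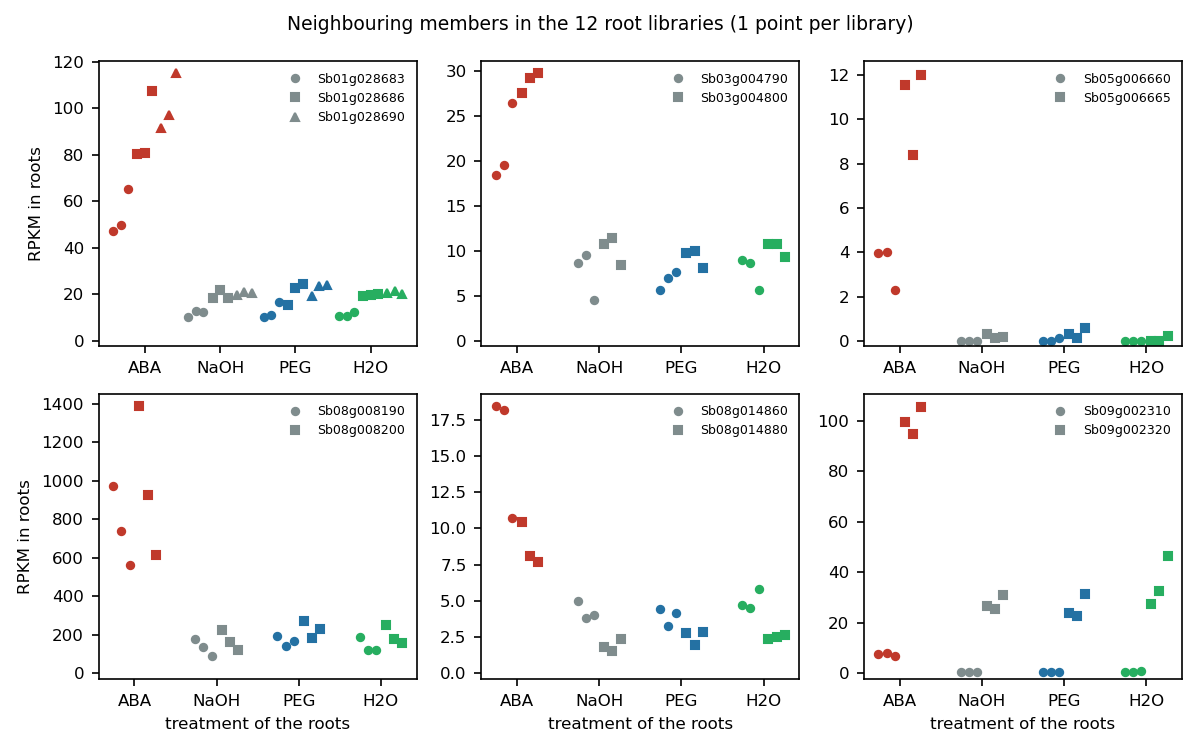
Level (y axis, RPKM) in ABA, NaOH, PEG and H2O roots (x axis) of the 13 members that have another member close by, 1 panel per set of neighbours, 1 symbol shape per gene and 1 point per library. In each panel the ABA points of a gene lie above its other points, and Sb08g008190 and Sb08g008200 overlap on the genome.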

How the data were processed

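RNA-Seq was done on 24 libraries in 8 groups, taken from the sample labels. The authors trimmed reads to 50 bases, aligned them uniquely to sorghum build sbi1 and counted Sbi1.4 exons with CASAVA 1.6, regardless of strand. The raw count deposited is the number of aligned bases, of which 93.2% to 96.1% of values per library were multiples of 50, and division by 50 with rounding gave reads. The RPKM was deposited by the authors and gave all levels and r. The deposited coverage signal (depth, in X) served only the 2X limit, and the deposited exon length is in bases. 1 table names no group in its header and was assigned by its label.

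The members and lists were chosen with earlier results of these data known. Differences were fitted with edgeR 4.0.16 in R 4.3.3 (robust quasi-likelihood, 8 group means, TMM, low-count filter, 22667 genes), two-sided, with Benjamini-Hochberg adjustment within each comparison. On simulated counts for the tissue comparison all changed genes were recovered. Few genes were changed there, equally up and down, so the simulation does not test the scaling between tissues that differ in many genes. Standard errors are the log2 fold change over the square root of F.

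Descriptions came from the study's tables of responding genes (143 of 150 members). Some keywords of the function groups were added after the descriptions had been read. Genes to be named were the first 20 by r, the first 4 of each function group and the 3 on each side of the limit. Added to these were the 12 highest in ABA and NaOH shoots, neighbours and those with primers. The 4 highest and 4 lowest in H2O roots against H2O shoots completed the list. Of the listed genes, Sb10g022920 (oxidation and detoxification), Sb09g000790 and Sb04g025890-1 (described, but fitting no function group) are not treated above. Other genes named complete a group or were chosen after their values were seen.

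Replicate numbers pair the samples, since each is 1 hydroponic experiment. Deviations from the group means correlated at 0.201, 0.228 and 0.118 between ABA and NaOH roots of the same number. The concentration of NaOH differs between the labels and the study's methods and enters no value. Counting error alone is covered by the floor of 3 reads. The alternatives were DESeq2 1.42.0, other scalings and filters, the replicate block, the software version as a term, the deposited base counts, left-out replicates, and, chosen after seeing the data, 2 left-out libraries.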

Additional observations from a re-analysis of the deposited data

How the results depend on the processing

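The choice of the 150 genes depended on its limits. With 0.1 RPKM added instead of 1, 81 of the 150 were chosen again, with a limit of 0.25 on r in the other comparisons 36, and with a limit of 0.75, 76. The other settings of the rule kept 100 to 150, and leaving out replicate 1, 2 or 3 kept 107 to 117. The fitted median log2 fold change of the members in ABA roots, 2.18, was 2.06 to 2.30 without a replicate, and the simple ratio of mean RPKM gave 1.66 because 1 RPKM is added to both means. The counts of called members stayed within 1.5 times in every alternative, including the left-out libraries: 119 to 147 in ABA roots, and 19 to 29 higher and 43 to 63 lower in H2O roots against H2O shoots. Leaving out a replicate gave 134 to 140, 20 in each case and 50 to 54. The replicate block gave 142, 20 and 51 and left the calls of the 8 genes named for the tissue comparison as they were. The counts over all genes tested (22667, or 28336 without the low-count filter) shifted as well. The alternatives called 1056 to 2718 of all genes higher in ABA roots. For H2O roots against H2O shoots they called 3553 to 7070 of all genes higher and 3103 to 5911 lower. Between NaOH and H2O, 0 members were called in every alternative, where over all genes the exact test called 85 higher and 1 lower in NaOH roots. None of the 8 tissue genes changed direction under any alternative, and Sb07g004680 was called (7.01) only without the depth limit. Its log2 fold rested on 1 library, and was 4.70 without replicate 3. The share of members with a promoter motif was not run, for want of promoter sequence. Depth limits the 17 members with at most 3 reads in each NaOH root library and the 52 faint in shoots, and annotation limits the 90 without a described function.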
